A study of Mus musculus with 21 samples.

Results

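Between the second and the third day after folic acid, 23 of 431 tested mature miRNAs in the mouse kidney changed, which is 5.34% of those tested. The 7 that fell were 6 red-cell miRNA rows and miR-5097, and they fell by 0.83 to 2.61 on the log2 scale. The 16 rows that rose, some with the same reads as another, included both miR-146 genes, leukocyte miRNAs and mesenchymal miRNAs. They rose by 0.32 to 1.21. Of these rises, only that of miR-146b-5p was still called without replicate 2 of day 3. No mesenchymal miRNA was called when libraries were scaled by their totals alone. The comparison rests on 6 of the 21 libraries of the study, 3 collected at day 2 and 3 at day 3, and on the 431 of 1125 listed miRNAs that passed a low-count filter.

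Every library came from the kidney of male BALB/c mice 12 weeks old, and both groups had received folic acid at 250 mg/kg in 0.3 M sodium bicarbonate. The 2 groups differ in the day of collection, 2 or 3 days after the injection, and neither has a group without folic acid beside it. Libraries of days 0, 1 and 7 serve as references below. The labels give them the same dose, vehicle and age, day 0 included, so whether the day 0 mice were injected is not clear. Folic acid at a high dose damages the renal tubules and is a common model of acute kidney injury followed by fibrosis. Whether the 3 libraries of each day represent 3 mice is not stated in the labels. The p-values below therefore cover only the spread among libraries of the same day, which may be technical. That spread is pooled over all libraries fitted, which are 21 unless stated otherwise. RNA came from whole kidney, so a smaller number of cells of a type and less RNA in each such cell cannot be told apart in any result below.

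A miRNA is a short RNA of about the length printed below that guides Argonaute proteins to messenger RNAs, mainly through its seed, bases 2 to 8. Some miRNAs are made almost only in 1 lineage and so mark that lineage in a mixed tissue. miR-451 and miR-144 come from 1 erythroid transcript driven by GATA1, and miR-486 is another miRNA abundant in red cells. miR-142 is made across blood cell lineages, miR-511 lies in the gene of the macrophage mannose receptor, and miR-199a and miR-214 share a transcript active in mesenchymal cells. miR-146a is induced by NF-kB and represses the adaptors Traf6 and Irak1, a negative feedback on inflammatory signalling, and miR-146b shares its seed.

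The sequences that carry the step are shown here from RefSeq (build GRCm38.p6), 5′ to 3′, with the seed in capitals. RefSeq gave a mature sequence for 17 of the 23 called miRNAs and for 337 of the 431 tested. First come the erythroid miRNAs that fell, then the pair of miR-146 miRNAs that share a seed, then the pair of rising miRNAs of the miR-130 seed, and then the leukocyte and mesenchymal miRNAs.
miR-451: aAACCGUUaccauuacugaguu
miR-144-3p: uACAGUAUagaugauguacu
miR-144-5p: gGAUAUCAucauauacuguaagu
miR-146a-5p: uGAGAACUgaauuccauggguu
miR-146b-5p: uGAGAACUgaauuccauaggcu
miR-130b-3p: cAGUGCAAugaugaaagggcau
miR-301a-3p: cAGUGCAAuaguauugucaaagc
miR-142-3p: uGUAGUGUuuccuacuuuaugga
miR-142-5p: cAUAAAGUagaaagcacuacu
miR-511-3p: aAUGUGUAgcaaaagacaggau
miR-214-3p: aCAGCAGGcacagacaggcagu
miR-199a-5p: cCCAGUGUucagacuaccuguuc
miR-199a-3p: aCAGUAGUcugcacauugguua
miR-199b-3p has the same 22 bases as miR-199a-3p, and the deposited table gives both the same reads in every library, so they are 1 measurement. miR-146a-5p and miR-146b-5p differ outside the seed at 2 positions, counted from 1 at the 5′ end of miR-146a-5p, G18A and U21C. miR-486-5p, miR-486-3p, miR-3107-5p, miR-5097, miR-669a-3p and miR-669o-3p had no matched sequence.

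Libraries of days 2 and 3 held 3212481 to 7110546 reads assigned to miRNAs, and a count of 0 allows up to 0.422 to 0.934 CPM (reads of a miRNA scaled to a common library total) at 3 reads, for counting error only. The 10 most abundant miRNAs, led by miR-10a-5p and miR-10b-5p, held 70.6 to 71.4% of the reads at day 2 and 70.8 to 71.8% at day 3, and none of them was called. Over all 431 tested miRNAs the median log2 fold change was 0.04, the median size of change was 0.14, and 9 moved by more than 1 in either direction. Tubular miR-192-5p stood at 70292 ± 3222 CPM on day 2 and at 73813 ± 7003 on day 3 (SD, n = 3). Of markers from elsewhere, miR-206-3p of striated muscle and miR-124-3p of brain had no read in the 6 libraries, and liver miR-122-5p reached at most 1.14 CPM. Of the same list of other organs, neuronal miR-9-5p gave -0.02 (adjusted p = 0.991 in limma) and endocrine miR-375-3p went from 437, 388 and 374 to 616, 465 and 570 CPM, separate but not called (0.45, adjusted p = 0.0702 in limma). The list summed to 560 to 671 CPM on day 2 and 657 to 821 on day 3, and limma on the 6 libraries alone called miR-375-3p.

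Values below are CPM after TMM scaling, a scaling that sets libraries on a common level. Tests were made with limma on log2(CPM + 1), 2-sided, in 1 fit over all 21 libraries. A miRNA was called at a Benjamini-Hochberg adjusted p under 0.05 over all 431. At an unadjusted p under 0.05 there were 57. For all 23 called miRNAs the 3 libraries of day 3 lay wholly above or wholly below the 3 of day 2, while 104 of the 431 tested (24.1%) were separated in that way, 73 of them higher (16.9%) and 31 lower (7.19%).

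**Figure D1:**
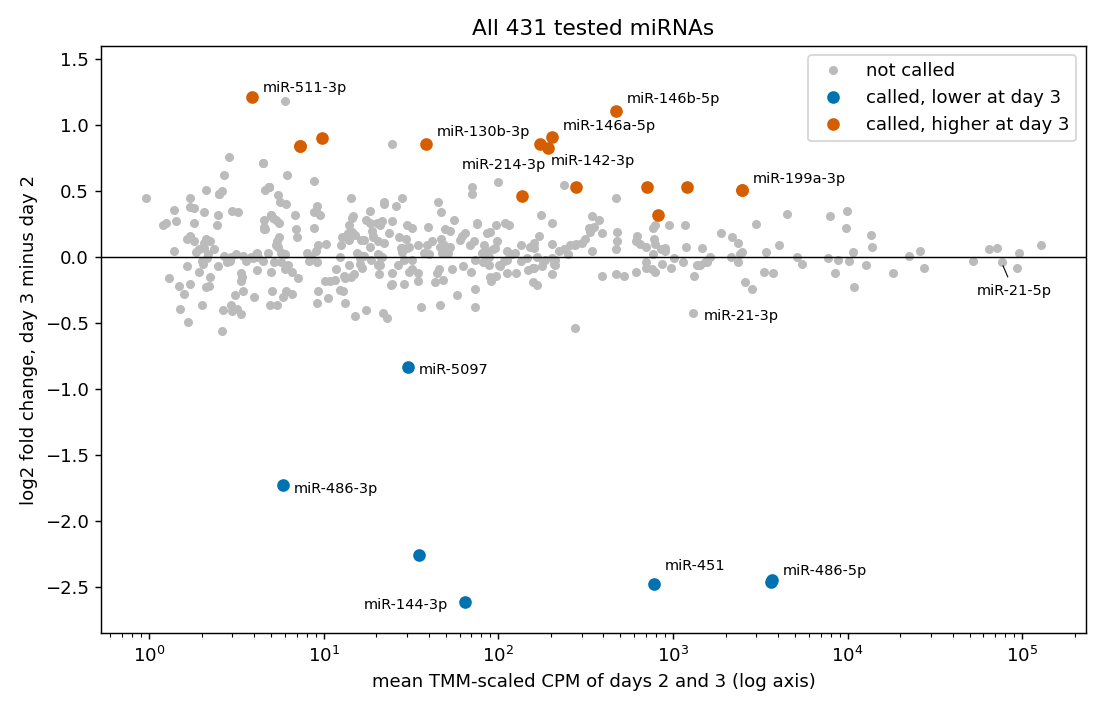
Each point is 1 of 431 tested miRNAs, with its mean TMM-scaled CPM over days 2 and 3 on the horizontal log axis and its log2 fold change, day 3 minus day 2, on the vertical axis. The 6 erythroid points lie between -1.73 and -2.61, apart from all others, the 16 called rises lie between 0.32 and 1.21, and the median of all points is 0.04.

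All 6 tested erythroid miRNAs fell, against 1.62% of all tested miRNAs that were called lower, a share made up of these 6 and miR-5097. Their median log2 fold change was -2.46, beside 0.04 over all tested. The 6 rest on fewer measurements than 6, because miR-3107-5p and miR-486-5p held nearly the same reads in each library. The seventh member listed, miR-3107-3p, did not pass the filter and reached at most 1.74 CPM on day 2 and 0.584 on day 3. This list and those below were chosen with earlier results of these data known, so shares set beside them are descriptions and not tests.

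miR-451, which represses 14-3-3 zeta and is needed for red cell maturation under stress, stood at 1712, 1442 and 835 CPM in the 3 day 2 libraries. On day 3 it stood at 298, 174 and 227. The lowest day 2 library was still well above the highest of day 3, and the drop was 5.71-fold between the means (-2.48 on the log2 scale in limma, SE 0.45, adjusted p = 0.00399). miR-451 is cut from its hairpin by Ago2 without Dicer, and the mature strand runs from the 5′ arm into the loop.

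miR-144-3p had the largest fall of any tested miRNA. It stood at 146, 121 and 68.4 CPM on day 2 and at 24.3, 12.3 and 15.2 on day 3. No library of day 3 reached the level of any library of day 2, and the means differed 6.46-fold (-2.61, SE 0.49, adjusted p = 0.00399 in limma). The other arm of the same hairpin, miR-144-5p, went from 73, 61.9 and 42.7 to 12.3, 9.09 and 12.8 CPM. Its libraries were likewise separate, with a 5.18-fold fall (-2.26, SE 0.55, adjusted p = 0.0204 in limma). This call was lost without replicate 1 or 2 of either day (adjusted p up to 0.101), with no filter (0.0692) and with robust empirical Bayes (0.0574).

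The hairpins of these miRNAs lie 99 bases apart on the same strand of chromosome 11, and the GENCODE M21 annotation used here places neither inside another gene. They are shown because both arms of one and the mature strand of the other fell together, with the mature parts in capitals. The first is at chr11:78073005-78073070 and the second at chr11:78073170-78073241, both on the plus strand of GRCm38.p6.
Mir144: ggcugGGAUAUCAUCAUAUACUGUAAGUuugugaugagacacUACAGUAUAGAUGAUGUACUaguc
Mir451a: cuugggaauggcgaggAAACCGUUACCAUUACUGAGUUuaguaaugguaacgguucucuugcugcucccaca

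miR-486-5p, which is abundant in red cells and in muscle, stood at 7668, 7245 and 3783 CPM on day 2. On day 3 it was at 1436, 944 and 939. The groups did not overlap, and the means differed 5.63-fold (-2.45, SE 0.48, adjusted p = 0.00399 in limma). Its row mate miR-3107-5p gave -2.46.

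The scarce arm miR-486-3p went from 10.3, 10.7 and 7.39 to 2.46, 2.93 and 1.2 CPM (-1.73, SE 0.34, adjusted p = 0.00399 in limma). The groups were separate, and these are few reads. miR-133a-3p, a striated muscle miRNA, stood at 17.3 ± 2.24 CPM on day 2 and 19.5 ± 9.05 on day 3, with a log2 fold change of 0.08 (adjusted p = 0.978 in limma). The striated muscle list, which bears on miR-486 because muscle also makes it, summed to 16.1 to 21.7 CPM on day 2 and 14.8 to 33.7 on day 3.

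Summed over the list, with miR-3107 left out, erythroid miRNAs held 9608, 8880 and 4736 CPM on day 2 and 1774, 1142 and 1195 on day 3. Replicate 3 of day 2 held about the same as the lowest library of day 1, where the sums ran from 4513 to 7660. At day 0 the sums ran from 1296 to 3386 and at day 7 from 768 to 2384. In this sum all 6 libraries of days 1 and 2 lay above every library of days 0, 3 and 7. By the same sum 2 of the 3 day 3 libraries lay below every library of day 0.

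miR-5097 was the 1 miRNA outside the erythroid list that fell. It stood at 41.8, 40.1 and 35.3 CPM on day 2 and 25.4, 17 and 22.7 on day 3. The day 3 libraries were all lower, 1.8-fold between the means (-0.83, SE 0.18, adjusted p = 0.00821 in limma). The call was lost without replicate 1 of day 2 or replicate 2 of day 3, with adjusted p up to 0.0942.

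**Figure D2:**
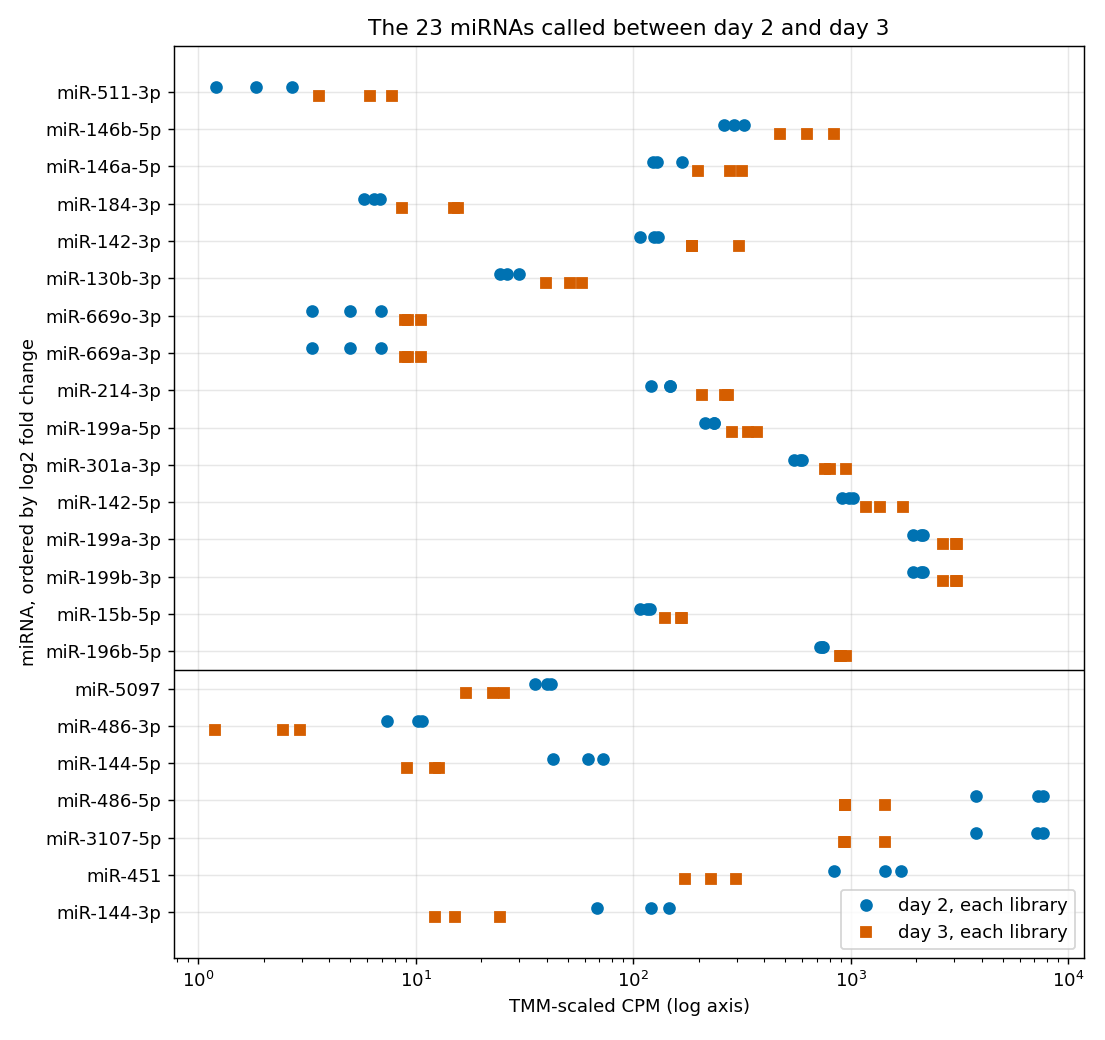
Each row is 1 of the 23 called miRNAs, ordered by log2 fold change, and each mark is the TMM-scaled CPM of 1 library on a log axis, with circles for the 3 libraries of day 2 and squares for the 3 of day 3. In every row the circles and squares are separate, from miR-511-3p at the top (1.92 to 5.85 CPM between the means) to miR-144-3p at the bottom (112 to 17.3).

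Of the 4 tested miRNAs of the NF-kB feedback list, the 2 mature 5p strands of miR-146 rose and the other two, miR-155-5p and miR-147-3p, were not called, against 3.71% of all tested miRNAs called higher. Another 4 listed arms did not pass the filter. miR-146b-5p stood at 291, 324 and 262 CPM on day 2 and 628, 838 and 475 on day 3. The highest day 2 library was below the lowest of day 3, and the rise was 2.22-fold between the means (1.11, SE 0.20, adjusted p = 0.00399 in limma). The hairpin lies in an intron of Mfsd13a at chr19:46342762-46342870 (plus strand, GRCm38.p6).

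miR-146a-5p, with the same seed, went from 129, 167 and 124 CPM to 279, 318 and 199. Its libraries did not overlap, and the rise was 1.9-fold (0.91, SE 0.21, adjusted p = 0.0163 in limma). The call was lost when replicate 1 or 3 of day 2, or replicate 1 or 2 of day 3, was left out, with adjusted p up to 0.114.

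The 2 miR-146 genes reached day 2 from opposite sides of day 0. miR-146a-5p was at 251 ± 76.6 CPM on day 0 and 140 ± 23.8 on day 2 (SD, n = 3), and its day 3 level of 265 ± 60.8 was close to that of day 0 (log2 difference 0.09, adjusted p = 0.752 in limma). miR-146b-5p was at 102 ± 22.2 on day 0, 292 ± 30.9 on day 2 and 647 ± 183 on day 3. On the NF-kB feedback list too, miR-155-5p of activated lymphocytes and macrophages was at 104, 110 and 96.1 CPM and then at 105, 108 and 84.7. Its libraries overlapped (-0.06, SE 0.12, adjusted p = 0.907 in limma), and the sign turned to 0.04 without replicate 3 of day 3. The scarce miR-147-3p was at 5.98, 5.61 and 5.08 CPM and then 6.46, 3.22 and 3.21, with overlapping libraries (-0.36, SE 0.30, adjusted p = 0.754 in limma).

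Of 10 tested leukocyte miRNAs, 3 rose and none fell, against 3.71% of all tested called higher, and their median log2 fold change was 0.53, beside 0.04 over all tested. They were both arms of miR-142 and miR-511-3p. Members summed to 1620 to 1677 CPM on day 2 and to 1990 to 2871 on day 3, with the 3 day 3 libraries all above the 3 of day 2. miR-155-3p and miR-150-3p did not pass the filter.

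miR-142-3p, made across blood cell lineages, stood at 130, 108 and 125 CPM on day 2 and 186, 308 and 187 on day 3. Replicate 2 of day 3 was far above the other two, and the means differed 1.87-fold (0.86, SE 0.19, adjusted p = 0.00821 in limma). The call was lost without that library (adjusted p = 0.0942) and without replicate 2 of day 2.

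The other arm, miR-142-5p, went from 1030, 984 and 914 to 1361, 1738 and 1173 CPM. Replicate 2 of day 3 was again the highest and no library of day 3 fell to the level of day 2 (0.53, SE 0.15, adjusted p = 0.0458 in limma). RLE and upper-quartile scaling, and 5 of the 6 left-out libraries, ended this call. Both arms come from 1 hairpin in an intron of the noncoding transcript Mir142hg at chr11:87756864-87756927 (plus strand, GRCm38.p6).

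miR-511-3p, from an intron of the macrophage mannose receptor gene Mrc1 (hairpin at chr2:14261003-14261081, plus strand, GRCm38.p6), had the largest rise of all called miRNAs. It stood at 2.71, 1.21 and 1.85 CPM on day 2 and at 7.78, 6.16 and 3.61 on day 3. The libraries were separate, but these are few reads, and its mean over all 21 libraries was 5.44 CPM (1.21, SE 0.31, adjusted p = 0.0298 in limma). The call was lost without replicates 2 or 3 of day 2 or replicates 1 or 2 of day 3, and without the filter.

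The other 7 tested leukocyte miRNAs did not pass the test. miR-223-3p, the main miRNA of neutrophils and monocytes, stood at 185, 201 and 161 CPM on day 2 and 240, 271 and 160 on day 3. The groups overlapped, because replicate 3 of day 3 was as low as the lowest of day 2 (0.26, SE 0.21, adjusted p = 0.748 in limma). In limma miR-223-5p gave 0.58 (adjusted p = 0.293) and miR-511-5p gave 0.45 (0.772), and both were scarce.

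The lymphocyte miRNAs lay in between. miR-150-5p of mature B and T cells stood at 157, 176 and 250 CPM on day 2 and 242, 321 and 281 on day 3, with 1 day 2 library inside the range of day 3 (0.55, SE 0.20, adjusted p = 0.149 in limma). It passed the test without replicate 3 of day 2 (adjusted p = 0.0496). miR-342-3p, from the Evl gene, was at 57.4, 58.8 and 55.7 CPM and then 73.9, 95 and 81.3, separate in all libraries but with an adjusted p of 0.115 in limma (0.53, SE 0.18). It was called when only the 6 libraries of days 2 and 3 were fitted (adjusted p = 0.022). miR-342-5p gave 0.47 (adjusted p = 0.477).

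Of 6 mesenchymal miRNAs, 4 rose and none fell, against 3.71% of all tested called higher. Their median log2 fold change was 0.51, beside 0.04 over all tested, and with the 2 rows of equal reads counted once these are 3 of 5. With library totals in place of TMM none of the 6 was called, and with RLE or upper-quartile scaling only miR-214-3p was, while all 6 log2 fold changes stayed above 0 under each of these scalings. Members summed to 2332 to 2574 CPM on day 2 and 3366 to 3701 on day 3, without overlap, and most of each sum was miR-199a-3p.

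miR-214-3p, a miRNA linked to kidney fibrosis, stood at 147, 121 and 147 CPM on day 2 and at 272, 264 and 207 on day 3. The groups were separate, with a 1.79-fold rise (0.83, SE 0.21, adjusted p = 0.0266 in limma). The call was lost without replicate 1 or 2 of either day, with no filter and with library totals (adjusted p up to 0.137). Its other arm miR-214-5p went from 25.4, 22.7 and 21.9 CPM to 35.3, 34.9 and 27.3, also separate, but was not called (0.45, adjusted p = 0.162 in limma).

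miR-199a-5p went from 236, 236 and 214 to 337, 372 and 285 CPM, with no overlap (0.53, SE 0.15, adjusted p = 0.0485 in limma). miR-199a-3p went from 2149, 1939 and 2103 to 3039, 2670 and 3090 CPM, a rise of 1.42-fold (0.51, SE 0.15, adjusted p = 0.0485 in limma). Both sit just under the threshold: miR-199a-5p lost its call without 5 of the 6 libraries and miR-199a-3p without any of them, and both lost it with no filter and in DESeq2. The scarcer miR-199b-5p was at 16 ± 2.43 CPM on day 2 and 20.8 ± 4.04 on day 3, with overlapping libraries (0.35, adjusted p = 0.62 in limma).

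The hairpins Mir199a-2 and Mir214 lie 5444 bases apart in exons of Dnm3os, which runs antisense to an intron of Dnm3 on chromosome 1, while copies of miR-199 also lie antisense to introns of Dnm2 and Dnm1. The reads cannot be assigned to one copy. By day 7 miR-199a-3p rose further to 5119 ± 116 CPM (0.81, adjusted p = 0.00312 in limma) and miR-199a-5p to 541 ± 123 (0.69, adjusted p = 0.013). miR-214-3p stood at 248 ± 35.5 CPM on day 3 and at 232 ± 26.3 on day 7 (-0.09, adjusted p = 0.899), and the difference between the members was not tested. The steps before and after day 3 share the day 3 libraries.

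**Figure D3:**
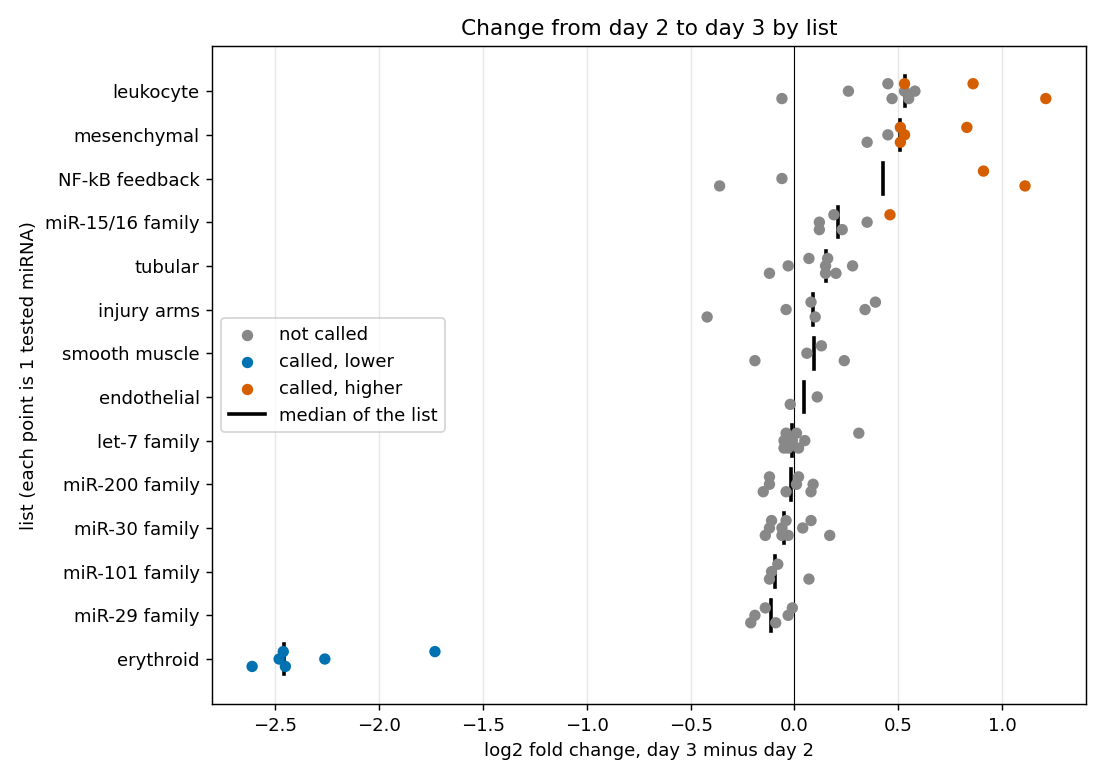
Each point is the log2 fold change, day 3 minus day 2, of 1 tested miRNA, grouped by list, and the black bars are the medians of the lists. The erythroid list (median -2.46) lies apart from the rest, the leukocyte (0.53), mesenchymal (0.51) and NF-kB (0.42) lists lie highest, and the renal and epithelial lists lie near 0.

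The 4 remaining rises at 10 CPM or more fall into 3 seed groups. miR-130b-3p, which like miR-301a-3p carries the seed AGUGCAA and is known to target Pparg, stood at 26.4, 29.9 and 24.3 CPM on day 2 and 51.3, 58.3 and 39.9 on day 3. The libraries were separate and the rise was 1.86-fold (0.86, SE 0.18, adjusted p = 0.00525 in limma). Of 18 alternative fits it lost its call only without replicate 2 of day 3 (adjusted p = 0.0621).

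miR-301a-3p, from an intron of Ska2, went from 598, 585 and 548 to 802, 952 and 765 CPM (0.53, SE 0.15, adjusted p = 0.0485 in limma). Its libraries did not overlap, but the call was lost without any one of the 6, with RLE or upper-quartile scaling, with no filter and in DESeq2 (adjusted p up to 0.288). miR-130a-3p, an abundant miRNA with this seed, was at 877 ± 6.46 CPM on day 2 and 919 ± 28.3 on day 3 and did not pass the test (0.07, adjusted p = 0.89 in limma). The hairpin Mir301b, 257 bases from Mir130b, gives miR-301b-3p, which went from 4.85, 2.8 and 2.08 to 5.69, 12.9 and 7.63 CPM and was not called (1.18, adjusted p = 0.0901 in limma), though it was with a pseudocount of 2 and in DESeq2.

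miR-15b-5p, of the miR-15/16 family that represses cyclins and Bcl2, went from 116, 120 and 107 to 168, 166 and 140 CPM (0.46, SE 0.13, adjusted p = 0.0485 in limma). It was the 1 of 6 tested family members called, and it lost its call with each of the other 3 scalings, with no filter and without 5 of the 6 libraries. All 6 carry the seed AGCAGCA and had log2 fold changes above 0, from 0.12 to 0.46, under TMM and from 0.04 to 0.39 with upper-quartile scaling. The hairpin Mir16-2 lies 66 bases from Mir15b in an intron of Smc4, and the reads of miR-16-5p were not assigned to a hairpin. miR-16-5p was at 9103, 8931 and 7999 CPM and then 10333, 13415 and 9623, separate but not called (0.35, adjusted p = 0.226 in limma).

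miR-196b-5p, encoded in the Hoxa cluster in an exon of Hoxa9, had the smallest called rise. It went from 744, 735 and 721 to 906, 890 and 954 CPM, with little spread within a day (0.32, SE 0.09, adjusted p = 0.0485 in limma). Its call was lost without any 1 of the 6 libraries, in DESeq2 (adjusted p = 0.0845), under robust empirical Bayes (0.0525), when the filter was dropped and with each of the other 3 scalings (0.0843 to 0.363). miR-196a-5p, with the same seed AGGUAGU, gave 0.16 (adjusted p = 0.477).

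Below 10 CPM, besides miR-511-3p, miR-184-3p and the 2 rows miR-669a-3p and miR-669o-3p were called higher, and these 3 are named after their values were seen. miR-184-3p stood at 6.84, 6.41 and 5.77 CPM on day 2 and 15.6, 15 and 8.63 on day 3 (0.90, SE 0.24, adjusted p = 0.0309 in limma). miR-669a-3p and miR-669o-3p hold the same reads, 4.99, 3.34 and 6.93 CPM and then 8.92, 10.6 and 9.23 (0.84, adjusted p = 0.0309 in limma). miR-669 belongs to the repeat cluster in an intron of Sfmbt2, and copies of the family cannot be separated. Both sets were separate between the days, but miR-184-3p and miR-669a-3p each lost the call without 5 of the 6 libraries.

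Across the 18 alternative settings and left-out libraries, miR-144-3p, miR-451, miR-486-5p, miR-3107-5p and miR-146b-5p kept their calls in all, as did miR-486-3p in the 17 in which it was tested. The share of rises among the calls was 69.6% with TMM (16 and 7), 58.8% with library totals (10 and 7), 56.2% with RLE (9 and 7) and 46.2% with upper-quartile scaling (6 and 7).

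The number of rises fell from 16 when any 1 library was left out. It was 4 without replicate 1, 3 without replicate 2 and 7 without replicate 3 of day 2, and it was 3 without replicate 1, 1 without replicate 2 and 10 without replicate 3 of day 3. The 1 rise called without replicate 2 of day 3 was miR-146b-5p. That library was the highest of the 3 in day 3 for miR-142-3p, miR-142-5p, miR-146a-5p, miR-146b-5p, miR-130b-3p and miR-301a-3p. The same held for miR-199a-5p and for the equal rows miR-669a-3p and miR-669o-3p. This library was also the shallowest, with 3212481 reads. The part of depth in these values was not tested. Falls numbered 5 to 7 in the same 6 fits.

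**Figure D4:**
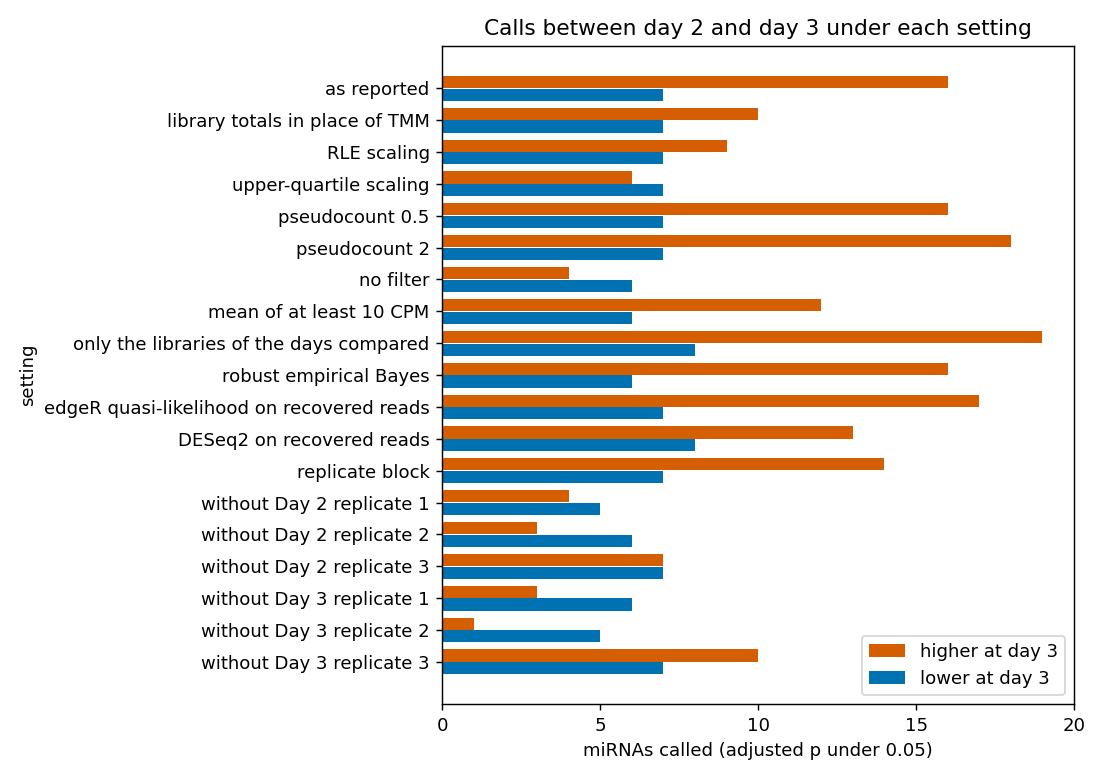
Bars give the number of miRNAs called at an adjusted p under 0.05 in each setting, higher at day 3 and lower at day 3, starting at 0. Falls number 5 to 8 in every setting, while rises run from 19 with only the libraries of the days compared to 1 without replicate 2 of day 3.

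None of the listed injury arms, which are those of miR-21, miR-132 and miR-212, passed the test at this step. miR-21-5p, known to rise strongly in injured kidney, stood at 81920, 82233 and 67647 CPM on day 2 and 77778, 80959 and 66717 on day 3. The groups overlapped (-0.04, SE 0.15, adjusted p = 0.978 in limma). Its passenger arm miR-21-3p went from 1660, 1474 and 1348 to 1291, 1095 and 966 CPM. All 3 libraries of day 3 were lower, but limma did not call it (-0.42, SE 0.20, unadjusted p = 0.0426, adjusted p = 0.344).

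miR-132-3p, induced by CREB, was at 288, 269 and 256 CPM and then 289, 290 and 288 (0.10, SE 0.20, adjusted p = 0.908 in limma). Its neighbour miR-212-3p was at 45.1 ± 4.63 and 47.6 ± 2.65 CPM (0.08, adjusted p = 0.961 in limma). The 5p arms were scarce: miR-132-5p gave 0.34 (adjusted p = 0.748) and miR-212-5p 0.39 (0.477). None of the 6 injury arms was thus called in either direction, with a median of 0.09.

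The tubular, miR-30, epithelial, smooth muscle and endothelial lists had no call. Of 8 tubular miRNAs, which had a median of 0.15, the smallest p belonged to miR-204-5p at 341 ± 9.8 CPM on day 2 and 413 ± 16.3 on day 3 (0.28, adjusted p = 0.149 in limma). The 10 of the miR-30 family had a median of -0.05 and the 8 of the epithelial miR-200 family a median of -0.02. Smooth muscle miR-143 and miR-145 (4 arms, median 0.09) and endothelial miR-126 (2 arms, median 0.05) did not pass either. These medians shift by less than 0.1 between scalings, and that of the endothelial list turns to -0.03 with upper-quartile scaling.

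Lists of growth and stress had no call but for miR-15b-5p. The 10 of the miR-17 to miR-92a cluster, known to drive proliferation, had a median of 0.03. Its member with the smallest p was miR-92a-5p at 52.3 ± 0.922 CPM on day 2 and 40.6 ± 4.91 on day 3 (-0.36, adjusted p = 0.115 in limma), and miR-92a-3p went from 11817 ± 287 to 10062 ± 133 (-0.23, adjusted p = 0.269). The libraries of both were separate, and DESeq2 called the former and a fit of the 6 libraries alone called the latter.

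The p53-induced miR-34 family had a median of 0.14 over 5, the miR-183 cluster 0.30 over 4, and the hypoxia pair of miR-210 arms 0.28. The miR-29 family, which represses collagens, had a median of -0.12 with all 6 below 0 under each of 4 scalings and no adjusted p under 0.477. The medians of the other lists were -0.01 for 9 of let-7, -0.10 for 4 of miR-101, 0.21 for 6 of miR-181, 0.03 for 9 of the miR-322 cluster, 0.01 for 6 of the miR-106b cluster, 0.19 for 3 of the miR-106a cluster and -0.04 for 13 tested miRNAs of the imprinted Dlk1-Dio3 cluster. None of these 7 lists had a call, though a fit of the 6 libraries of days 2 and 3 alone called let-7i-5p and miR-181c-3p.

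To ask whether the step differed from that of the day before, the change from day 2 to day 3 was set against the change from day 1 to day 2 in the same fit. No miRNA passed in limma (0%, with 36 at an unadjusted p under 0.05), edgeR called 3 and DESeq2 called 2. The 6 with the smallest p were miR-5097 and 5 erythroid rows. Both steps share the day 2 libraries.

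miR-5097 had the smallest p, with 27.1 ± 6.98 CPM on day 1, 39.1 ± 3.32 on day 2 and 21.7 ± 4.31 on day 3 (difference of the steps -1.38, SE 0.32, adjusted p = 0.124 in limma). edgeR and DESeq2 called it (adjusted p = 0.0391 and 0.00503), as did limma without replicate 1 of day 1 (0.03). Its level at day 3 was close to that of day 0, 21.7 ± 3.04.

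Between days 1 and 2 the erythroid miRNAs had log2 fold changes of 0.20 to 0.59, and none was called. miR-451 stood at 1161 ± 597 CPM on day 1, 1329 ± 449 on day 2 and 233 ± 62.7 on day 3 (difference of the steps -2.75, SE 0.78, adjusted p = 0.224 in limma and 0.115 in both edgeR and DESeq2). The spread on day 1 was wide, with libraries at 606, 1793 and 1085. For miR-144-3p the difference was -3.20 (adjusted p = 0.178 in limma, 0.0468 in edgeR, 0.104 in DESeq2) and for miR-486-3p it was -2.31 (0.178 in limma, 0.0281 in edgeR, 0.00503 in DESeq2). All 6 erythroid rows passed when only the 9 libraries of days 1 to 3 were fitted, with adjusted p from 0.0048 to 0.037.

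For the rises no difference of the steps passed the test in limma, edgeR or DESeq2. miR-214-3p and miR-130b-3p were called in the step before as well (1.02 and 0.80, adjusted p = 0.0123 and 0.0167 in limma), and the difference of the steps was -0.19 and 0.06. miR-146b-5p gave 0.35 and then 1.11 (difference 0.76, SE 0.35, adjusted p = 0.562). For miR-146a-5p the values were -0.22 and 0.91, a difference of 1.13 (SE 0.37, adjusted p = 0.267). In all, limma called 12 miRNAs (2.78%) between days 1 and 2 and 8 (1.86%) between days 3 and 7, beside the 23 between days 2 and 3.

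**Figure D5:**
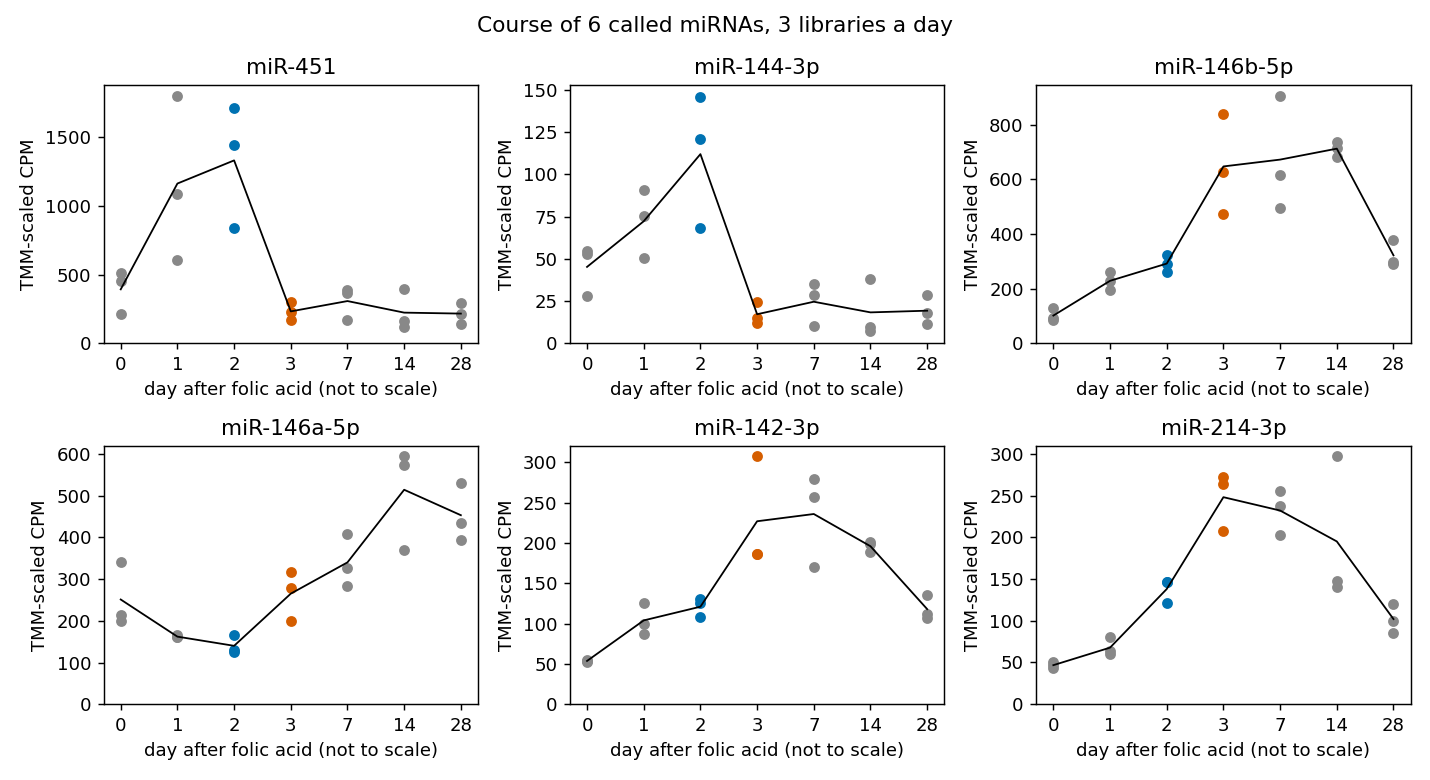
TMM-scaled CPM of 6 called miRNAs against the day after folic acid (days evenly spaced, not to scale), with 1 point per library and a line through the means of 3. miR-451 and miR-144-3p drop from day 2 to day 3 (1329 to 233 and 112 to 17.3 CPM) and stay low, while miR-146b-5p, miR-142-3p and miR-214-3p climb at that step and miR-146a-5p turns upward from its lowest mean at day 2.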

How the data were processed

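Small RNA from whole kidney was sequenced after Trizol extraction and TruSeq small RNA preparation, per the labels' protocols. The submitters' processing notes name CASAVA 1.8 and build mm9. Which aligner, counter and miRBase release were used is not given in the sources used here. The authors deposited 1 table of CPM for 1125 mature miRNAs, in which every column sums to the same total. Whole reads were recovered for 100% of the values (within 0.05 of a read, largest distance 0.035), giving 2875675 to 7110546 reads per library over the 21 libraries of 7 days.

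The edgeR (4.0.16) filterByExpr, minimum count 10, kept 431 miRNAs, which here means about 2.22 CPM in at least 3 libraries. miR-3066-5p (2.25) and miR-450b-3p (2.27) lay just inside by their third-highest CPM, and miR-503-5p and miR-466i-5p (both 2.21) just outside. 250 miRNAs had no read. limma 3.58.1 (R 4.3.3, trend) was fitted to log2(TMM-scaled CPM + 1), 1 mean per day, which understates changes of scarce miRNAs. Fold changes between means use TMM-scaled CPM. The fit was tested on simulated data. Replicate libraries differed beyond sampling noise (chi-square per degree of freedom 23.1 to 101).

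Named miRNAs were the up to 12 largest called rises and falls with a mean of at least 10 CPM and no overlap, members of the erythroid, leukocyte, mesenchymal and injury lists, other arms of a named hairpin, up to 4 members of other lists by smallest p, and the 6 smallest p of the difference of steps. miR-301b-3p, miR-196a-5p, miR-16-5p, miR-130a-3p and miR-192-5p were added as neighbours, seed mates or a reference. The step, the members and the lists were chosen with earlier results of these data known. Alternatives were other scalings, pseudocounts of 0.5 and 2, other filters, fewer libraries, robust variance, edgeR, DESeq2 1.42.0, a replicate block and leaving out each library. Sequences are from RefSeq, annotation from GENCODE M21 on GRCm38.p6.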

Additional observations from a re-analysis of the deposited data

How the results depend on the processing

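Against 23 calls (16 higher, 7 lower), upper-quartile scaling gave 13 and no filter, which raised the number tested to 875, gave 10. Leaving out 1 library gave 6 to 17. Rises numbered 10 with library totals, 9 with RLE, 6 with upper-quartile scaling, 4 with no filter and 1 to 10 with 1 library left out. Falls stayed within 1.5 times their number in every setting run. The difference of the steps, with 0 calls, gave 6 with only the libraries compared, 3 in edgeR, 2 in DESeq2 and 0 to 1 with 1 library left out. The causes of these differences were not tested. With 1 library left out miR-155-5p ran from -0.13 to 0.04 (above 0 without day 3 replicate 3) and miR-21-5p from -0.13 to 0.04 (0.01 without day 2 replicate 1, 0.01 without day 2 replicate 2 and 0.04 without day 3 replicate 3). With the replicate number as a block, 14 rose and 7 fell, and 21 were called in all. Same-numbered libraries of days 2 and 3 had correlated deviations of 0.05, 0.10 and 0.19, not all above 0.1, so the numbers were not taken as a pairing. Replicate 1 of day 3 correlated best with replicate 2 of day 2 (0.14). Replicates 2 and 3 of day 3 correlated best with the day 2 library of their own number (0.10 and 0.19). Depth limits miRNAs near 1 CPM.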
